A study of Mus musculus with 4 samples.

Results

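The genes described here are 47 type I interferon-stimulated genes, taken as a list of gene symbols. Of the 47, 45 had a row among the 32285 features of the count tables, and Mx1 and Mx2 did not and were not analysed here. Spleen cells were profiled by droplet single-cell RNA sequencing in 4 libraries, 1 per group, from 10-week-old mice. Wild-type C57BL/6 mice and mice labelled TRIF-KO received an intravenous injection of 100 µl that held PBS alone or 9 µg of recombinant murine TNF, and spleens were taken 4 h later. Red blood cells had been lysed and dead cells removed from the suspensions. The labels name no allele for TRIF-KO, give no sex and do not say how many mice a library holds. Wherever 4 values follow each other, those of the PBS and the TNF library of wild-type come first, and then those of the PBS and the TNF library labelled TRIF-KO.

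Type I interferons bind a receptor made of Ifnar1 and Ifnar2, and the kinases Jak1 and Tyk2 then pass the signal on to transcription factors. A complex that contains Irf9 binds the interferon-stimulated response element (ISRE) in the promoters of many of the genes described here. Their products hinder viruses at many steps. IFIT proteins bind foreign RNA, OAS enzymes make a second messenger that activates RNase L, Isg15 is a ubiquitin-like modifier, and Rsad2 (viperin), Cmpk2 and Samhd1 act on nucleotides. Ifih1, Ddx58 and Dhx58 sense RNA, PYHIN proteins such as Ifi204 and Ifi205 bind DNA or act in the nucleus, and Schlafens act on RNA and on cell growth. TRIF, encoded by Ticam1, is the adaptor through which Toll-like receptors 3 and 4 induce interferon-beta, and TNF is a cytokine that drives acute inflammation.

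The tables held 2683, 6855, 6508 and 8060 barcodes, and 2448, 4966, 5364 and 6606 cells were kept, 19384 in all. Kept cells had medians of 6872, 4661, 4406 and 7195.5 UMIs (unique molecular identifiers, each standing for 1 captured RNA molecule). Between 1 and 10 barcodes were shared by any pair of libraries. Wild-type TNF stood apart in quality, with 22.4% of its barcodes above 10% mitochondrial UMIs against 6.26%, 10.8% and 11.6% in the others. Ticam1 itself was not lower in the libraries labelled TRIF-KO, at 6.88, 3.75, 8.52 and 5.79 CPM (UMIs scaled to a total of 1000000), from 154, 112, 251 and 342 UMIs. UMIs tag the 3′ end of a transcript and check a deletion only where it removes that end, so the genotype is taken from the labels alone. Genotype, animal and library cannot be told apart, because each group is 1 library.

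Cells were clustered without the members and other response genes and named from marker genes. A class was compared where every library held at least 50 of its cells, which left 7 classes. Lymphocytes gave 3 of them. B-like cells numbered 1204, 2683, 2837 and 2924, T-like cells 456, 1073, 1291 and 1363, and NK-like cells 68, 72, 135 and 73. The myeloid classes were neutrophil-like (167, 82, 101 and 353 cells), monocyte-like (80, 52, 113 and 90) and macrophage-like cells (57, 121, 126 and 256), and the last was erythroid-like cells (250, 521, 359 and 1106). The UMIs of all cells of a class in a library were added up, and CPM is taken of that total. Since 3′ ends are counted, CPM is not scaled by gene length. A gene counts as measured where a class holds 50 or more of its UMIs in all and its mean level is 10 CPM or more. By that filter 42 members were measured in at least 1 class, 7 in all 7 classes, and 3 in none. A member is called higher or lower where 2 libraries differ at least 2-fold and the exact 95% interval of the log2 ratio excludes 0. Intervals, printed in square brackets, cover counting error only. No p-value was computed, since 1 library per group gives no replicate error.

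Promoter stretches of 6 members are shown because these genes carry the patterns below. Isg15, Rsad2 and Isg20 were highest in erythroid-like cells, Ifi205 had the largest response in monocyte-like cells, Oas3 was lower with TNF in monocyte-like cells, and Ifit3 was called higher with TNF in B-like and T-like cells of TRIF-KO. The last 2 genes were also called the other way in TRIF-KO. With TNF, Oas3 was higher in T-like cells (log2 ratio 1.15) and Ifit3 lower in monocyte-like cells (-1.23). Sequences are from RefSeq on GRCm38.p6, the build also called mm10, and run 5′ to 3′ on the gene's strand over the 160 bases before the first transcribed base. Capitals mark matches to the ISRE core (GAAA, any 2 bases, then GAAA), or for Isg20 to the GAS core TTCNNNGAA, on either strand, and overlapping matches are joined. They lie at chr4:156200819-156200978 on the minus strand (Isg15), chr12:26456453-26456612 on the minus strand (Rsad2), chr7:78913264-78913423 on the plus strand (Isg20), chr1:174031811-174031970 on the minus strand (Ifi205), chr5:120777662-120777821 on the minus strand (Oas3) and chr19:34583369-34583528 on the plus strand (Ifit3).
Isg15: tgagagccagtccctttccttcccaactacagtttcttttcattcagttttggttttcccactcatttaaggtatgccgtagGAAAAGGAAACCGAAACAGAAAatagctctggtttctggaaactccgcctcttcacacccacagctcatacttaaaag
Rsad2: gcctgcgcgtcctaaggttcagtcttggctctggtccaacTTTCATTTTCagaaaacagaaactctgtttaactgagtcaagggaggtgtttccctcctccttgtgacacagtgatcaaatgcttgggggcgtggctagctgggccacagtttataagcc
Isg20: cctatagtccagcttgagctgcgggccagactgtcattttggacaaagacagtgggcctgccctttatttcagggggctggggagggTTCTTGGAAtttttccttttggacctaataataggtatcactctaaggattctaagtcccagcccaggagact
Ifi205: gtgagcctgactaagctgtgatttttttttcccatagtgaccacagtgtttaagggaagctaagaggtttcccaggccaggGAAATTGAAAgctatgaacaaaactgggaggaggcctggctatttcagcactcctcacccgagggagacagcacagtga
Oas3: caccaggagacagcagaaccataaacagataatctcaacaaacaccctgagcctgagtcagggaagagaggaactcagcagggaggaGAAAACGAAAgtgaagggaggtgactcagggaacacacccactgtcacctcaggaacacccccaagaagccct
Ifit3: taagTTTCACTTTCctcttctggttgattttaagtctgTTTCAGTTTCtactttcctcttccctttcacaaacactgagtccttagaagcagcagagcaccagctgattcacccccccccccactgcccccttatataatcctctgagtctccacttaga

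Of the 47 members, 38 were in the promoter table, which covers 250 bases before to 50 after each start. The ISRE core was found for 21 of these 38 genes (55.3%), against 1079 of all 27025 genes in the table (3.99%). The GAS core, a motif known from interferon-gamma target genes, was found for 7 of the 38 (18.4%), against 2582 of all genes (9.55%). A match is a description of letters only. Several members are neighbours in the genome (coordinates on the same build). The 5 PYHIN members lie on chromosome 1 from 173566283 (Ifi213) to 174031810 (Ifi205), and the 5 IFIT members on chromosome 19 from 34550694 (Ifit2) to 34650009 (Ifit1). Rsad2 and Cmpk2 lie side by side on chromosome 12, on opposite strands. Near-identical copies such as Ifit3 and Ifit3b, Oas1a and Oas1g, or Phf11b and Phf11d may share reads, so their single values are uncertain.

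With PBS the members' RNA was present in every class. As a share of all UMIs, its summed level was highest in monocyte-like and then neutrophil-like cells. The summed members took 7953 CPM of the UMIs of monocyte-like cells and 6672 CPM of those of neutrophil-like cells in wild-type, and 7240 and 4662 CPM in TRIF-KO. B-like cells had 2864 and 2503 CPM, T-like cells 2694 and 2414, macrophage-like cells 2982 and 3833, erythroid-like cells 3259 and 2021, and NK-like cells 1761 and 1539 CPM. On this total, monocyte-like cells were first and NK-like cells last of the 7 classes in all 4 libraries. The order depends on the total, since haemoglobin genes took 71.4%, 73.1%, 77.9% and 77.9% of the UMIs of erythroid-like cells. Without haemoglobin, mitochondrial, ribosomal and antigen-receptor genes in it, erythroid-like cells were first in all 4, at 12964, 14710, 10924 and 18488 CPM. Monocyte-like cells then had 10063, 8646, 9547 and 7359 CPM. Of the 42 measured members, 18 had their highest PBS level in monocyte-like cells in each genotype, and 14 (wild-type) or 11 (TRIF-KO) in neutrophil-like cells. For some members the highest of the 7 compared classes was the same in all 4 libraries. Monocyte-like cells held 7 such members (Ifi204, Ifi205, Ifi27l2a, Ifi35, Ms4a4c, Oas1a and Phf11d) and neutrophil-like cells 6 (Ddx58, Oas3, Oasl2, Slfn1, Slfn4 and Trim30a). Erythroid-like cells held 3 such members (Isg15, Isg20 and Rsad2), while macrophage-like (Lgals3bp), NK-like (Ifi47) and T-like cells (Ifit1bl1) held 1 each. For the other 23 members the highest class differed between libraries. Conventional dendritic-like cells, too few to compare, had more Ifi205 than monocyte-like cells in every library but wild-type TNF.

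Many leading members with PBS were shared between classes, apart from those of erythroid-like cells. In monocyte-like cells the small membrane-associated Ifi27l2a led with 2127 CPM in wild-type and 2169.7 in TRIF-KO, ahead of the dNTP hydrolase Samhd1 (945 and 949). The tetraspan protein Ms4a4c stood at 953 and 525 CPM there. Neutrophil-like cells were led by Trim30a in wild-type (787 and 414) and by Samhd1 in TRIF-KO (772 and 759). Ifi27l2a (709 and 649) and Slfn1 (695 and 614) were also among their leading members, and Slfn4 was lower in TRIF-KO (655 and 284). B-like and T-like cells shared the PYHIN gene Ifi203 (531 and 383 in B-like, 377 and 263 in T-like) and Ifi27l2a (494 and 569 in B-like, 451 and 559.8 in T-like) among their leading members. These PBS levels came with almost no detected ligand. Of 18 type I interferon genes in the tables, 15 had no UMI in any library, and the other 3 (Ifnab, Ifnk and Ifnz) had 15 UMIs in 19384 cells (2, 9, 0 and 4). At this depth a library with 0 UMIs of a gene still allows up to 0.134 CPM in wild-type PBS (a floor of 3 counts).

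**Figure D1:**
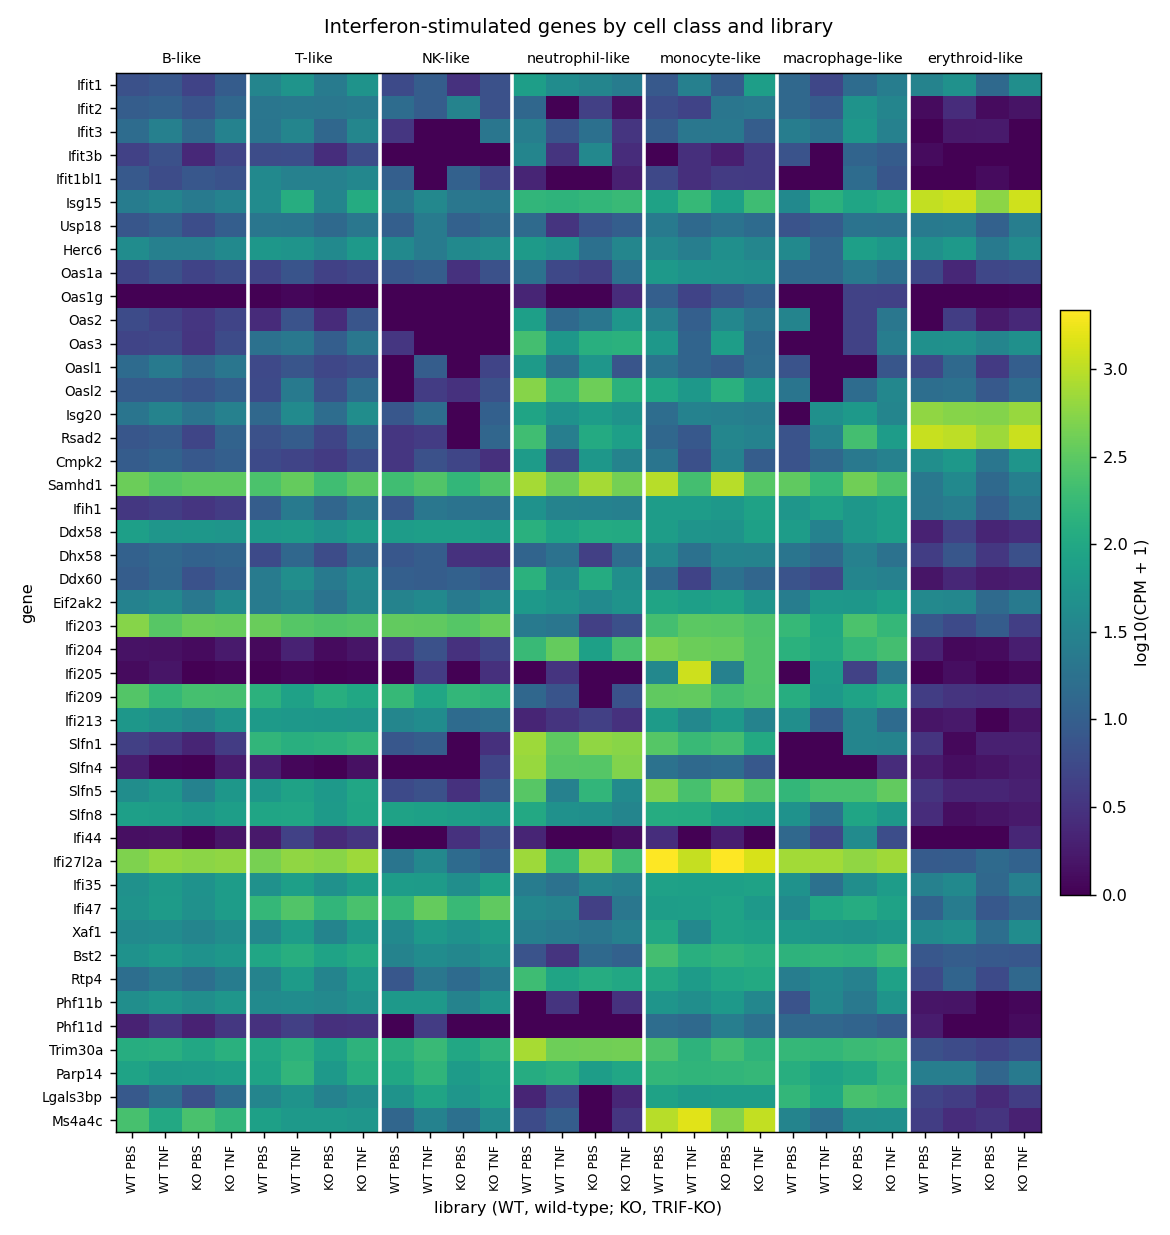
Heatmap of log10(CPM + 1) for the 45 members (rows) in 7 classes, each with 4 libraries (columns, in the order used in the text). Isg15, Rsad2 and Isg20 are brightest in the erythroid-like columns, and Ifi27l2a in the monocyte-like ones.

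The members called with TNF were mostly higher in T-like cells and mostly lower in neutrophil-like cells of wild-type. Of 179 measured pairs of member and class, 12 were called higher and 23 lower with TNF in wild-type, where 4.61% of all 38371 pairs of gene and class were called higher and 10.6% lower. In TRIF-KO 25 were called higher and 13 lower, against 4.74% and 7.17% of all pairs. Higher calls in both genotypes came from T-like (4) and monocyte-like cells (3), and lower calls in both from neutrophil-like (5) and monocyte-like cells (3). The 2 responses share no library.

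**Figure D2:**
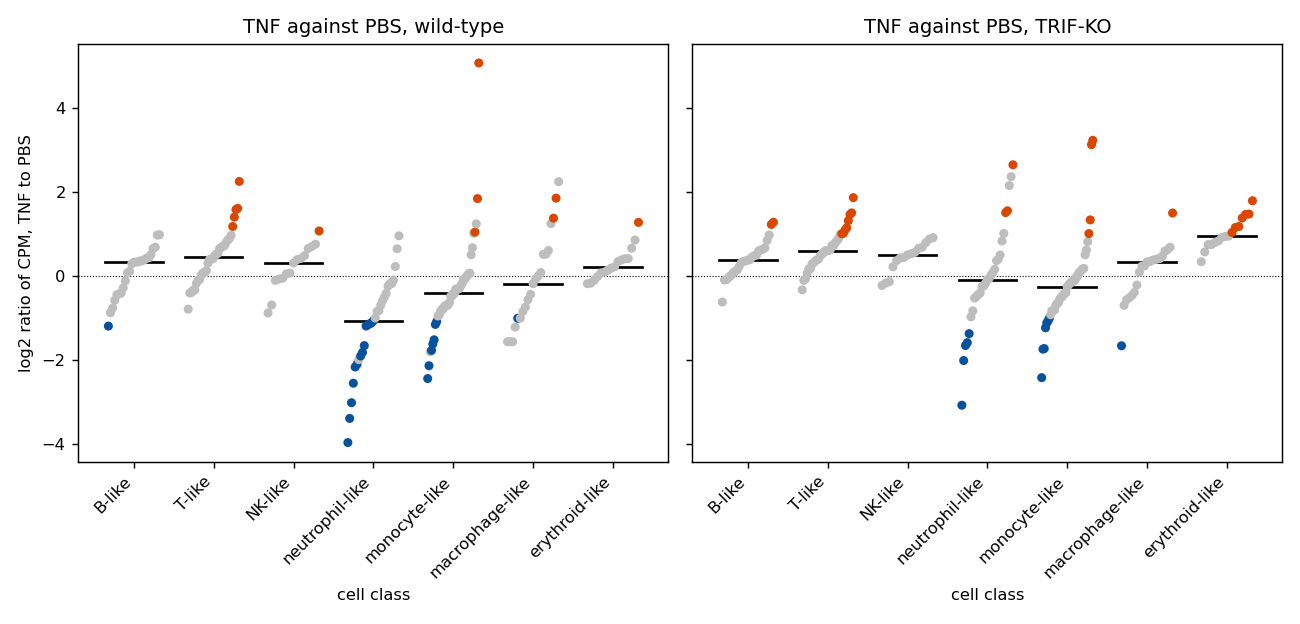
log2 ratio of TNF to PBS for each measured member in the 7 classes, with wild-type and TRIF-KO in separate panels; orange points are called higher, blue called lower, grey neither, and the line is the members' median. T-like points lie mostly above 0 in both panels (medians 0.45 and 0.60), neutrophil-like points mostly below 0 in wild-type (median -1.06).

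In T-like cells all called members were higher with TNF. Of 32 measured members, 5 were called higher and 0 lower in wild-type, where 2.3% of 7167 measured genes were called higher and 4.81% lower. In TRIF-KO 8 were called higher and 0 lower, against 1.63% and 0.851% of genes. The members' median log2 ratio was 0.45 (all genes -0.18) in wild-type and 0.60 (all genes 0.06) in TRIF-KO, with 24 and 29 of 32 above 0. With median-of-ratios scaling 8 were higher in wild-type, and with cells of at most 5% mitochondrial UMIs 5 were higher in TRIF-KO. Isg15 had 39.5, 119, 30.9 and 112.5 CPM in T-like cells, so both TNF libraries lay above both PBS libraries, with log2 ratios of 1.58 [1.35, 1.83] and 1.87 [1.67, 2.07]. The exonuclease Isg20 had 12.5, 38.2, 14.7 and 41.8 CPM (1.61 [1.19, 2.05] and 1.504 [1.21, 1.80]). Oasl2, an OAS-like protein, had 4.69, 22.4, 5.58 and 13.9 CPM (2.25 [1.59, 2.98] and 1.32 [0.84, 1.82]), and the receptor transporter Rtp4 had 29.7, 67.4, 30.6 and 62.0 CPM (1.18 and 1.02). These 4 genes are the T-like members called higher in both genotypes. The RNA sensor Ifih1 had 8.71, 23.1, 11.5 and 19.97 CPM and was called in wild-type alone. The PYHIN gene Ifi209 was lower in the TNF libraries, at 139.7, 81.0, 122 and 97.6 CPM, without reaching 2-fold. Isg15 and Isg20 are abundant in erythroid-like cells. The summed erythroid markers in T-like cells were 1011, 962, 438 and 975 CPM, against 402930 to 435220 CPM in erythroid-like cells, and their part in these values was not tested.

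B-like cells moved less. Of 25 measured members, 0 were called higher and 1 lower with TNF in wild-type (0.953% and 2.03% of 7454 measured genes), and 2 higher and 0 lower in TRIF-KO (0.953% and 0.496%). The members' median was 0.33 in wild-type and 0.39 in TRIF-KO, against -0.17 and -0.01 for all genes. Ifit3 had 14.0, 27.6, 12.4 and 29.1 CPM, with log2 ratios of 0.98 [0.68, 1.30] and 1.23 [0.97, 1.495], and the secreted Lgals3bp had 7.51, 14.8, 5.73 and 13.9 CPM (0.98 and 1.28). Ms4a4c went the other way, with 232, 102, 238 and 155 CPM (-1.19 [-1.29, -1.09] in wild-type and -0.62 [-0.69, -0.54] in TRIF-KO). In the same cells Ifi203 was lowest in wild-type TNF, with 531, 290.4, 383 and 362 CPM. NK-like cells had 15 measured members and few UMIs, with 68 to 135 cells per library. There 1 member was called higher and 0 lower in wild-type (4.2% and 10.4% of 4905 genes), and 0 and 0 in TRIF-KO (3.57% and 6.73%). With cells gated one by one on markers, 3 were higher in each genotype. The interferon-inducible GTPase Ifi47 had 167, 352, 180.5 and 333 CPM, with log2 ratios of 1.07 [0.64, 1.52] and 0.88 [0.51, 1.26] that overlap.

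In monocyte-like cells Ifi205 had the largest TNF ratio of any member, while the shares of members called were near those of all genes, except for lower calls in TRIF-KO. Of 41 measured members, 3 were called higher and 7 lower with TNF in wild-type, where 8.54% of 7152 genes were called higher and 20.3% lower. In TRIF-KO 4 were called higher and 7 lower, against 10.2% and 12.5% of genes. The wild-type counts became 5 and 3 with median-of-ratios scaling, and 1 and 12 without the cell with the most UMIs of each gene. Ifi205, a PYHIN gene with close relatives that may share its reads, had 35.6, 1197, 27.97 and 263 CPM from 42, 655, 30 and 390 UMIs. Its log2 ratio was 5.07 [4.62, 5.56] in wild-type and 3.23 [2.69, 3.82] in TRIF-KO, and TRIF-KO TNF was lower than wild-type TNF by a log2 ratio of -2.19 [-2.37, -2.01]. A UMI of Ifi205 was seen in 23.8%, 88.5%, 10.6% and 64.4% of monocyte-like cells (median 14747, 11101, 9356 and 14694 UMIs per cell) and in 0.166%, 0.261%, 0% and 0.0684% of B-like cells (median 5916.5, 4042, 3793 and 5594.5). Isg15 had 83.1, 172, 78.3 and 198 CPM (1.05 [0.62, 1.47] and 1.34 [0.98, 1.71]), and without the cell with most of its UMIs the wild-type ratio was 0.70. Ifit1 had 7.64, 27.4, 8.39 and 73.4 CPM, but 12 of its 15 wild-type TNF UMIs lay in 1 cell, and without it that ratio was -0.29. In TRIF-KO its ratio was 3.13 [2.15, 4.30]. Samhd1 was lower in both TNF libraries than in both PBS libraries, at 945, 216, 949 and 285 CPM (-2.13 [-2.42, -1.86] and -1.74 [-1.90, -1.57]). Oas3, which makes the RNase L activator, had 59.4, 10.97, 71.8 and 13.5 CPM (-2.44 and -2.41), and Cmpk2 18.7, 5.48, 28.9 and 8.75 CPM (-1.77 and -1.72). The wild-type value of Cmpk2 with TNF rests on 3 UMIs, and its call was lost under 3 other settings, among them median-of-ratios scaling at -1.49.

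The composition of the monocyte-like class moved with treatment. Of its cells, the 1 cluster that held most PBS cells had 79, 0, 113 and 1 of them, and another held 1, 52, 0 and 89. The summed monocyte markers were 32154, 16990, 34636 and 17756 CPM and the summed macrophage markers 238, 2588, 462 and 1785 CPM. The part of this change in the ratios above was not tested, and a change within cells and a change of cells cannot be told apart here.

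In neutrophil-like cells of wild-type all called members were lower with TNF, while in TRIF-KO the share called lower was not above that of all genes. The cells in the class also changed with treatment. Of 29 measured members, 0 were called higher and 14 lower in wild-type, against 9.18% and 20.6% of 5205 genes, and the members' median log2 ratio was -1.06 (all genes -0.29). In TRIF-KO 3 were called higher and 5 lower, against 6.22% and 20.8% of genes, with a median of -0.08 (all genes -0.38). Slfn5 had 291, 27.9, 155 and 38.6 CPM (-3.38 [-4.31, -2.58] and -2.01 [-2.50, -1.49]), Ifi27l2a 709, 159, 649 and 207 CPM (-2.16 and -1.65), and Oasl2 532, 169, 397 and 133 CPM (-1.65 and -1.58). For each of these 3 genes both TNF libraries lay below both PBS libraries. Rsad2 was called lower in wild-type and not in TRIF-KO, with 207, 25.7, 109.9 and 76.5 CPM (-3.01 [-3.99, -2.17] and -0.52 [-1.05, 0.04]). Its neighbour Cmpk2 had 66.7, 4.29, 58.2 and 29.7 CPM, and only 2 UMIs in wild-type TNF. Ifi204 was higher in both TNF libraries, at 182, 354, 77.5 and 228 CPM (0.96 [0.63, 1.29] and 1.55 [0.97, 2.21]).

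Different clusters held the neutrophil-like cells of the PBS and TNF libraries. A cluster rich in the granule genes Camp and Ngp, which mark immature neutrophils, held 5, 51, 4 and 225 of the cells, another held 162, 0, 97 and 0, and the last 0, 31, 0 and 128. Camp stood at 2436, 10277, 8065 and 8561 CPM in the class and the chemokine receptor Cxcr2 at 3997, 1502, 2175 and 1532. Without the Camp- and Ngp-rich cluster, 2 members were called higher and 7 lower in wild-type, and 5 and 2 in TRIF-KO. The TRIF-KO ratios of Slfn5, Ifi27l2a and Oasl2 were then -0.63, -0.76 and -0.53, none of them called, and that of Oasl2 in wild-type was -0.43. With median-of-ratios scaling, 1 member was higher and 9 lower in wild-type, and 6 and 4 in TRIF-KO. The summed erythroid markers in the class were 2147, 1384, 817 and 8333 CPM, and their part in the values was not tested.

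**Figure D3:**
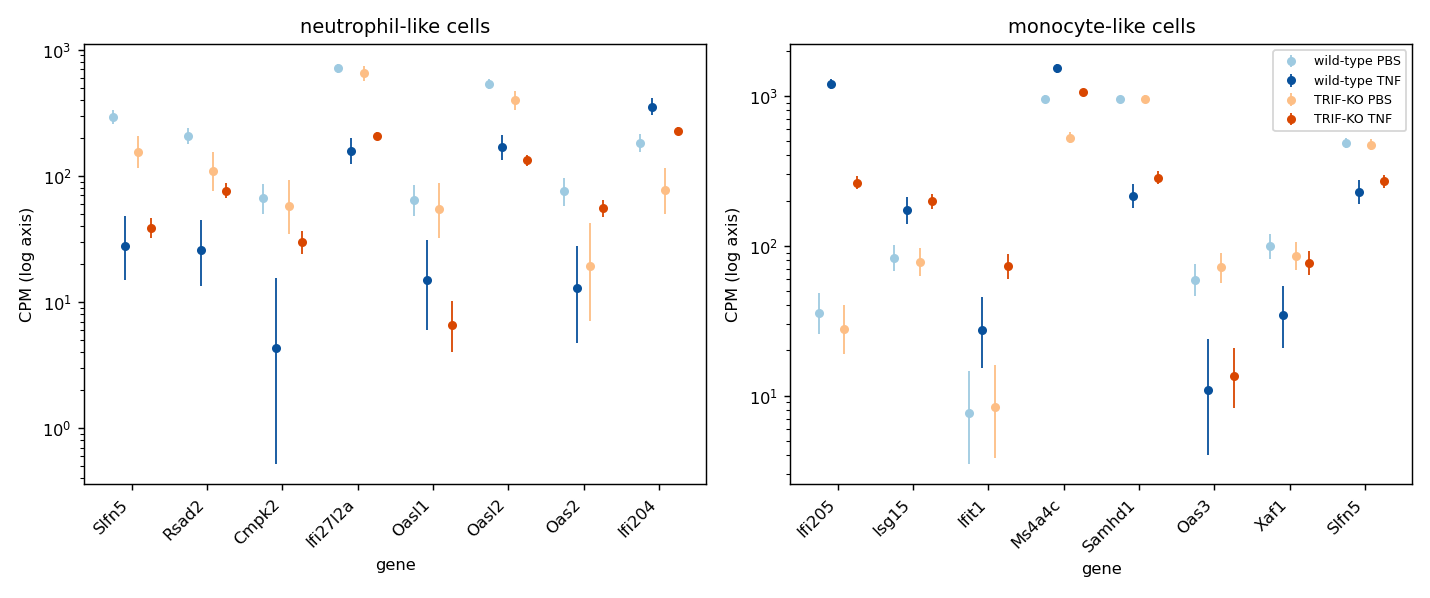
CPM (log axis) of 8 members in neutrophil-like and 8 in monocyte-like cells in the 4 libraries, with 95% Poisson intervals as bars. In wild-type, Ifi205 stands at 35.6 CPM with PBS and 1197 with TNF in monocyte-like cells, and Slfn5 at 291 and 27.9 in neutrophil-like cells.

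Macrophage-like cells were shallow, with median UMIs of 1249, 962, 1002 and 1075.5 per cell, and their member values rest on few UMIs. Different clusters held them in the PBS and TNF libraries, with 12, 120, 27 and 256 cells in one, 42, 1, 87 and 0 in another, and 3, 0, 12 and 0 in the last, so a change within cells and a change of cells cannot be told apart. Of 21 measured members, 2 were called higher and 1 lower with TNF in wild-type (5.33% and 12.8% of 3830 genes), and 1 higher and 1 lower in TRIF-KO (9.35% and 8.3%). The higher count in TRIF-KO was 3 or 4 under 5 of the other settings tried. Isg15 had 37.1, 134, 89.4 and 113 CPM from 6, 32, 25 and 67 UMIs, with log2 ratios of 1.86 [0.58, 3.40] and 0.34 [-0.34, 1.06]. Rsad2 had 6.19, 29.4, 218 and 69.2 CPM, and 26 of its 61 UMIs in TRIF-KO PBS lay in 1 cell. It is the member called lower in TRIF-KO, at -1.66 [-2.26, -1.06], and at -0.58 with cells weighted equally, where it was not called. Samhd1 had 328, 164, 415 and 256 CPM (-1.003 and -0.69), a wild-type call lost under 6 of the other settings tried. The summed erythroid markers in this class were 4843, 33995, 38875 and 13614 CPM, and their part in the member values was not tested.

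Erythroid-like cells carried 3 members far above all other classes, and these made up most of their member RNA. Isg15 had 1071, 1222, 564 and 1258 CPM, Rsad2 1139, 1006, 696 and 1171 CPM, and Isg20 600.2, 536, 515 and 654 CPM. The 3 genes together held 86.2%, 83.0%, 87.9% and 86.8% of the members' UMIs in the class. Compared with the next class in the same library, Isg15 was 6.79, 7.11, 3.49 and 6.35 times as high, Isg20 6.88, 10.9, 7.60 and 12.7 times, and Rsad2 5.49, 34.2, 3.19 and 15.3 times. Within the erythroid-like clusters Rsad2 ranged from 447 to 8110 CPM and Isg20 from 486 to 777 CPM of all UMIs. Haemoglobin genes took from 33.1% to 92.4% of the UMIs of these clusters. The spread of either gene relative to other RNA therefore cannot be read from these values. The cluster with the highest Rsad2 also had the highest transferrin receptor Tfrc, at 2283 CPM of the same total, and the same limit holds for Tfrc. Haemoglobin genes took 71.4%, 73.1%, 77.9% and 77.9% of all UMIs of the class. With those, mitochondrial, ribosomal and antigen-receptor genes left out of the total, Isg15 stood at 4260, 5400, 3048 and 6544 CPM.

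In erythroid-like cells more members were called with TNF in TRIF-KO, whose PBS library had low levels. Of 16 measured members, 1 was called higher and 0 lower in wild-type (1.32% and 2.37% of 2658 genes), and 7 higher and 0 lower in TRIF-KO (1.66% and 1.02%). The members' medians were 0.21 and 0.95, against -0.04 and -0.06 for all genes. Ifit1 had 30.4, 48.2, 12.7 and 44.0 CPM (0.67 [0.35, 0.99] and 1.79 [1.39, 2.23]), the apoptosis factor Xaf1 38.0, 44.3, 14.9 and 41.5 CPM (0.22 and 1.48), and Cmpk2 43.9, 58.7, 19.6 and 54.1 CPM (0.42 and 1.47). In each of these 3 genes TRIF-KO PBS was the lowest library and TRIF-KO TNF was near wild-type TNF. With each cell weighted equally, the TRIF-KO ratios of Ifit1 and Xaf1 were 0.80 and 0.91 and were not called. Ifi47 had 10.0, 24.3, 7.33 and 12.3 CPM and was called higher in wild-type, at 1.28 [0.75, 1.84]. The libraries also differed in the clusters of this class. A cluster with 92.4% haemoglobin UMIs held 52, 131, 143 and 354 of the 250, 521, 359 and 1106 cells. Another with 48.1% held 65, 147, 57 and 166. The part of these differences in the ratios was not tested, and a change within cells and a change of cells cannot be told apart.

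The response in TRIF-KO minus that in wild-type was also taken for each member on the log2 scale. In erythroid-like cells its interval lay above 0 for 13 of 16 members and below 0 for 0, against 24.9% and 20% of all genes, with a median of 0.84 (all genes 0.02). In neutrophil-like cells it lay above 0 for 11 of 29 and below for 0, against 9.65% and 14.7%, with a median of 0.56 (all genes -0.09). B-like cells had 13 of 25 above 0 and 1 below (35.5% and 11.8% of genes), and T-like cells 12 of 32 and 1 (35.1% and 7.42%), which for T-like cells is near the share of all genes. Monocyte-like cells had 7 of 41 above and 3 below (14.7% and 6.99%), macrophage-like cells 3 of 21 and 3 (12.3% and 3.88%), and NK-like cells 0 of 15 in either direction (6.33% and 5.04%).

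Between genotypes with PBS, most calls were members lower in erythroid-like and neutrophil-like cells of TRIF-KO. In erythroid-like cells 0 were called higher and 10 lower, against 0.263% and 8.13% of genes, and all 16 lay below 0, with a median of -1.06 (all genes -0.45). The count of 10 became 1 with median-of-ratios scaling, 1 with haemoglobin and similar genes left out of the total, and 6 with cells weighted equally. The erythroid-like cells of the 2 PBS libraries also differed in their clusters, as given above, and the part of this was not tested. In neutrophil-like cells 0 were called higher and 7 lower (4.9% and 5.59% of genes). Slfn4 was 1 of the 7, at -1.20 [-1.55, -0.88]. The calls of Ifit1 and Slfn8 were lost with cells gated by markers (-0.89 and -0.99). These neutrophil-like cells also differed between wild-type PBS and TRIF-KO PBS in Camp (2436 and 8065 CPM) and Cxcr2 (3997 and 2175 CPM). Their median depth was 4363 and 2545 UMIs, and the part of these differences was not tested. In monocyte-like cells 3 were called higher and 0 lower (2.14% and 3.37%), in macrophage-like cells 2 and 0 (2.82% and 4.67%), in NK-like cells 0 and 1 (1.28% and 1.83%), and in B-like (0.107% and 0.282%) and T-like cells (0.153% and 0.586%) 0 in either direction.

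Between genotypes with TNF, most calls were members higher in myeloid classes of TRIF-KO. No member was called in B-like cells (0.0402% of genes higher and 0.161% lower), T-like cells (0.558% and 0.726%) or NK-like cells (2.73% and 1.98%), nor in erythroid-like cells (0.301% and 4.25%). The medians in B-like and T-like cells were 0.04 and -0.04. In neutrophil-like cells 5 were called higher and 0 lower in TRIF-KO (3.98% and 6.8% of genes), among them Rsad2 at 1.57 [0.74, 2.55] and Cmpk2 at 2.79 [0.90, 5.86]. Without the Camp- and Ngp-rich cluster, which left 31 cells in wild-type TNF, 4 of the 5 calls were lost, and Rsad2 was kept. In monocyte-like cells 4 were higher (Ifit1, Ifit2, Rsad2 and Xaf1) and 1 lower, Ifi205 (6.36% and 2.24%). The Ifit2 call was lost without its top cell, and the Xaf1 call with median-of-ratios scaling (0.98) and with doublets kept (0.96). The summed erythroid markers in monocyte-like cells were 826, 713, 434 and 6144 CPM, highest in the same TRIF-KO TNF library, and their part in these values was not tested. Rsad2 itself had 28.95 CPM there, against 1171 CPM in erythroid-like cells. In macrophage-like cells 8 were higher and 0 lower (6.63% and 1.93%), and the 8 became 3 to 5 under 7 other settings.

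The number of members seen per cell was compared after thinning each cell to 2000 UMIs. Cells with fewer UMIs were left out, so the shares are not of whole classes. Among macrophage-like cells only 20 of 57, 28 of 121, 32 of 126 and 64 of 256 remained, and among neutrophil-like cells of TRIF-KO PBS 84 of 101. The share of cells with at least 5 members was 81.2%, 70.0%, 74.8% and 66.7% in monocyte-like cells and 34.9%, 45.7%, 25.2% and 43.5% in T-like cells. It was 29.8%, 22.97%, 23.1% and 28.3% in B-like cells and 13.6%, 15.4%, 4.5% and 12.1% in erythroid-like cells. Haemoglobin genes took 71.4%, 73.1%, 77.9% and 77.9% of erythroid-like UMIs, so fewer of the 2000 UMIs came from other genes there. The erythroid-like shares are therefore not comparable with those of other classes, nor fully between libraries. In neutrophil-like cells the share was 70.1%, 41.8%, 48.8% and 55.8%. Without thinning, the median numbers of members per cell were 20.5, 14, 16 and 16 in monocyte-like, 11, 10, 8 and 12 in T-like, 7, 5, 5 and 7 in B-like and 4, 4, 3 and 4 in erythroid-like cells. After thinning, T-like cells were higher with TNF in both genotypes, and the unthinned median was not higher in wild-type.

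**Figure D4:**
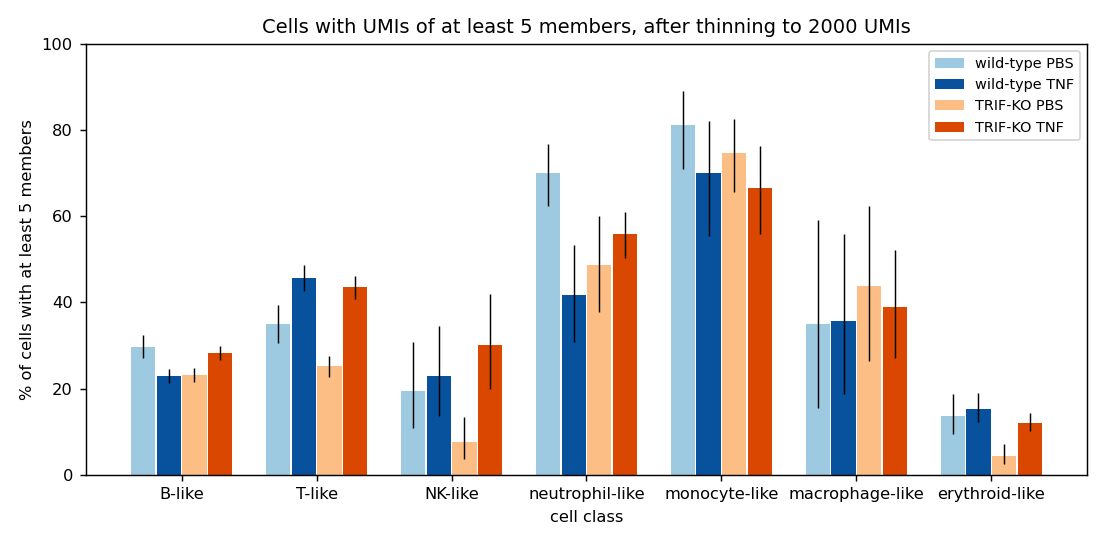
Share of cells (%) with at least 5 members after thinning to 2000 UMIs, by class and library, with exact binomial 95% intervals as error bars. Cells with fewer than 2000 UMIs were left out, which were most of the macrophage-like cells. T-like bars are higher with TNF (45.7% and 43.5%) than with PBS (34.9% and 25.2%).

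Other genes of the pathway were read from a list of receptors, transducers, inducers and feedback genes. In T-like cells 8 of 24 measured were called higher and 0 lower in wild-type, and 3 and 0 in TRIF-KO, against 2.3% and 4.81%, and 1.63% and 0.851%, of all genes. In NK-like cells 6 of 19 were higher and 3 lower in wild-type, and 5 and 1 in TRIF-KO, against 4.2% and 10.4%, and 3.57% and 6.73%, of all genes. Monocyte-like cells had 3 of 26 higher and 7 lower in wild-type (8.54% and 20.3% of all genes), and 2 and 0 in TRIF-KO (10.2% and 12.5%). The feedback inhibitor Socs1 had 49.2, 237, 50.9 and 106 CPM among T-like cells (2.27 and 1.05), and Socs3 had 63.2, 429, 41.8 and 230 CPM there (2.76 and 2.46). Socs3 also stood at 110, 693, 49.4 and 321 CPM in monocyte-like cells, higher in both TNF libraries. Ifng, the ligand of the other interferon pathway, had 107, 46.2, 97.2 and 45.9 CPM in NK-like cells, lower with TNF in both genotypes (-1.21 and -1.08). Of the interferon-gamma GTPase genes, 7 of 15 measured in T-like cells were called higher in wild-type and 6 in TRIF-KO (2.3% and 1.63% of all genes), and 0 of 9 in B-like cells in either genotype (0.953% of genes in each). NK-like cells had 5 and 6 of 10 higher (4.2% and 3.57%) and 0 lower. Macrophage-like cells had 3 of 9 higher in each genotype (5.33% and 9.35%), with 0 and 2 lower (12.8% and 8.3%). Monocyte-like cells had 1 of 8 higher and 5 lower in wild-type (8.54% and 20.3%), and 1 and 0 in TRIF-KO (10.2% and 12.5%).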

How the data were processed

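Spleen cells of 4 libraries were analysed from the deposited count tables of UMIs per gene and barcode. The deposited counts are raw, per the file headers, which name Cell Ranger 6.0.1; the submitters' processing notes name Cell Ranger 3.0, Seurat 4.1.1 and mm10. No step of the authors beyond these is given in the sources used here. Barcodes were kept with 200 or more genes and no more than 10% of UMIs from mitochondrial genes, and the highest Scrublet scores of each library (0.8% per 1000 barcodes) were removed as doublets. Cells were clustered with scanpy 1.11.5 and igraph 0.11.9 (2000 variable genes, 30 components, 15 neighbours, Leiden resolution 1) after 1061 genes, the members among them, had been left out. Of 32 clusters, 29 were named from markers. A second naming pass among related clusters, and a rule leaving unnamed any non-erythroid cluster with at least 10% haemoglobin UMIs, were set after a first clustering had been seen. Ratios of summed UMIs have exact conditional intervals, levels Poisson and shares Clopper-Pearson intervals (scipy 1.17.1). Libraries at 0 UMIs were set to a floor of 3 counts, and the difference between responses adds 0.5 to each count. Scripts were tested on simulated data, and other scalings, filters, doublet handling, gating and weighting of cells were tried. Members and lists were chosen with earlier results of these data known. Values were given for at most the 4 highest and 4 lowest called members per comparison and class, with the leading PBS members; others named were chosen after their values were seen. Conventional (25 to 111 cells) and plasmacytoid dendritic cells were too few to compare. The values of 1 pathway gene are not reported here.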

Additional observations from a re-analysis of the deposited data

Results flagged for a closer look

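Oas2, which makes the activator of RNase L, responded in opposite directions in neutrophil-like cells. Its level was 75.2, 12.9, 19.4 and 55.2 CPM, from 62, 6, 6 and 169 UMIs. The log2 ratio of TNF to PBS was -2.55 in wild-type and 1.51 in TRIF-KO. The TRIF-KO response minus the wild-type response was 3.84 [2.22, 5.47], with 0.5 added to each count and an interval for counting error only. Beyond counting error the difference was not tested, since each group is 1 library. Without the Camp- and Ngp-rich cluster, which left 31 cells in wild-type TNF, the ratios were -1.35 and 1.18 and neither was called.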

How the results depend on the processing

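Against main counts of 12 higher and 23 lower (wild-type TNF), 25 and 13 (TRIF-KO TNF), 5 and 18 (TRIF-KO against wild-type, PBS) and 17 and 1 (with TNF), median-of-ratios scaling gave 20 higher and 13 lower for wild-type TNF, 8 lower between genotypes with PBS, and 11 higher and 2 lower with TNF. Leaving mitochondrial, ribosomal, haemoglobin and antigen-receptor genes out of the total gave 9 lower with PBS. The stricter filter (100 UMIs and 50 CPM) gave 6 higher in wild-type, 6 higher and 8 lower in TRIF-KO, 2 higher and 3 lower with PBS and 6 higher with TNF; it turned the B-like wild-type median of members minus all genes to -0.13 and moved it to -0.095 in erythroid-like wild-type, 0.10 in B-like TRIF-KO and 0.56 in erythroid-like cells between genotypes with TNF. Without a filter the counts were 19 higher (wild-type), 42 higher (TRIF-KO) and 9 lower between genotypes with TNF. That last count was 2 with doublets kept, 4 with cells weighted equally, 2 without the top cell and 2 without the Camp and Ngp cluster, and marker gating moved the erythroid-like median to 0.016. The causes were not tested, except that filters change how many genes are counted. Of the 114 calls, 84 were kept under median-of-ratios scaling, the fewest of any setting, and none reversed. The settings without the Camp and Ngp cluster, with the haemoglobin-rich macrophage cluster, and without members under 5% of another class were chosen after seeing the data. No paired analysis was possible because each group is 1 library and the labels give no replicate numbers. Depth limits NK-like and macrophage-like cells most.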

Other observations

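Conventional dendritic-like cells, too few to compare (25, 95, 62 and 111 cells), had 436, 869.7, 255 and 466 CPM of Ifi205. These levels were above those of monocyte-like cells in every library but wild-type TNF. Plasmacytoid dendritic-like cells (7, 9, 22 and 15 cells) had 3975, 2014, 3738 and 2894 CPM of Bst2, the tetherin that holds budding viruses at the cell surface, against 218, 126, 146 and 127 CPM in monocyte-like cells.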
